A study of Sus scrofa domesticus with 6 samples.

Results

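The tumour necrosis factor (TNF) superfamily was described in pig small intestine through its ligands, its receptors and the TRAF adaptors. Members were the rows of the gene table whose symbol begins with TNFSF or TNFRSF or is TRAF followed by a digit, together with TNF, LTA, LTB, LTBR, CD27, CD70, CD40, CD40LG, FAS, FASLG and EDA2R. A pair of receptor genes was left out by the rule. Of 30352 named genes, 43 met the naming rule and 42 of them reached the minimum of 20 reads summed over the 6 libraries. EDA2R, a receptor of the ectodysplasin branch, had 0 counts in all 6 libraries. All 42 members also passed the filter on low counts and entered the tests.

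RNA sequencing was done on small intestine of wild type Göttingen minipigs aged 6 months, with 2 animals in each of 3 groups. IR_Pra animals received 15 Gy of cobalt-60 gamma rays to the abdomen and oral pravastatin at 40 mg/day for 2 weeks. IR animals received the same 15 Gy without the drug, and Control animals were unirradiated. Tissue was collected on day 14 (the labels name no segment of the small intestine), and pravastatin is a statin, a class of drugs that inhibits cholesterol synthesis. PS and Pra in the labels were both taken to mean this drug.

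TNF superfamily ligands are mostly trimeric membrane proteins, some of which are shed. They cluster receptors that either carry a death domain, and can start apoptosis through FADD and caspases, or bind TRAF proteins, and so switch on NF-kB and MAP kinase signals. In the gut the family is known for TNF in inflammation, for lymphotoxin and BAFF in lymphoid follicles and B cell survival, and for RANK ligand in the formation of M cells, the antigen-sampling epithelial cells above those follicles.

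Library totals ran from 48600424 to 73975174 counts. Of 6 small intestine marker genes none was at 0 in any group, and their summed level was 2532 and 2232 CPM (counts scaled to a common library size with TMM factors) in IR_Pra animals, 2537 and 233 CPM in IR animals and 2925 and 2849 CPM in Control animals. IR 2 therefore stood apart from IR 1. The 5 enterocyte markers measured summed to 13118 and 11441 CPM in IR_Pra animals, 15137 and 404 CPM in IR animals and 17525 and 18941 CPM in Control animals. IR 1 stood apart in another way: its median log2 difference from Control was 0.62 over the decile of genes with the shortest transcripts and -0.66 over the decile with the longest. Members were somewhat short, with a median transcript length of 2312 nt for the 41 that had a length, against 3162 nt over 16473 genes.

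Levels between genes were compared per length, in FPKM (fragments scaled for transcript length and library depth). In IR animals the highest mean levels were 102 FPKM for TNFRSF1A, the main receptor for soluble TNF, 70.5 FPKM for LTBR, the lymphotoxin beta receptor, 54.0 FPKM for TNFSF12 and 51.4 FPKM for TNFRSF12A. In Control animals they were 72.9 FPKM for LTBR, 63.7 FPKM for LTB, a membrane subunit of lymphotoxin, and 55.6 FPKM for TNFRSF1A. By mean FPKM, TNFRSF12A ranked 4 of 42 in IR animals and 18 in Control animals. TNFSF12, its ligand, ranked 3 in IR animals and 13 in Control animals, whereas LTB ranked 12 in IR animals and 2 in Control animals. TNFSF11 was the lowest of all members in IR animals and ranked 27 in Control animals. A mean of at least 10 FPKM was reached by 14 members in IR_Pra animals, 12 in IR animals and 13 in Control animals. A mean under 1 FPKM was found for 6 members in IR_Pra animals, 15 in IR animals and 9 in Control animals. TNFSF18 and TNFSF8, ligands that costimulate T cells, were under 1 FPKM in all 3 groups. The plot of levels per length shows the spread between animals, which makes the order of some neighbouring genes uncertain. In Control animals, for example, LTBR had 70.1 and 75.7 FPKM and LTB 90.3 and 37.1 FPKM. TNFRSF1A was above LTBR in both IR animals, at 93.4 and 110 FPKM against 72.6 and 68.4 FPKM.

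**Figure D1:**
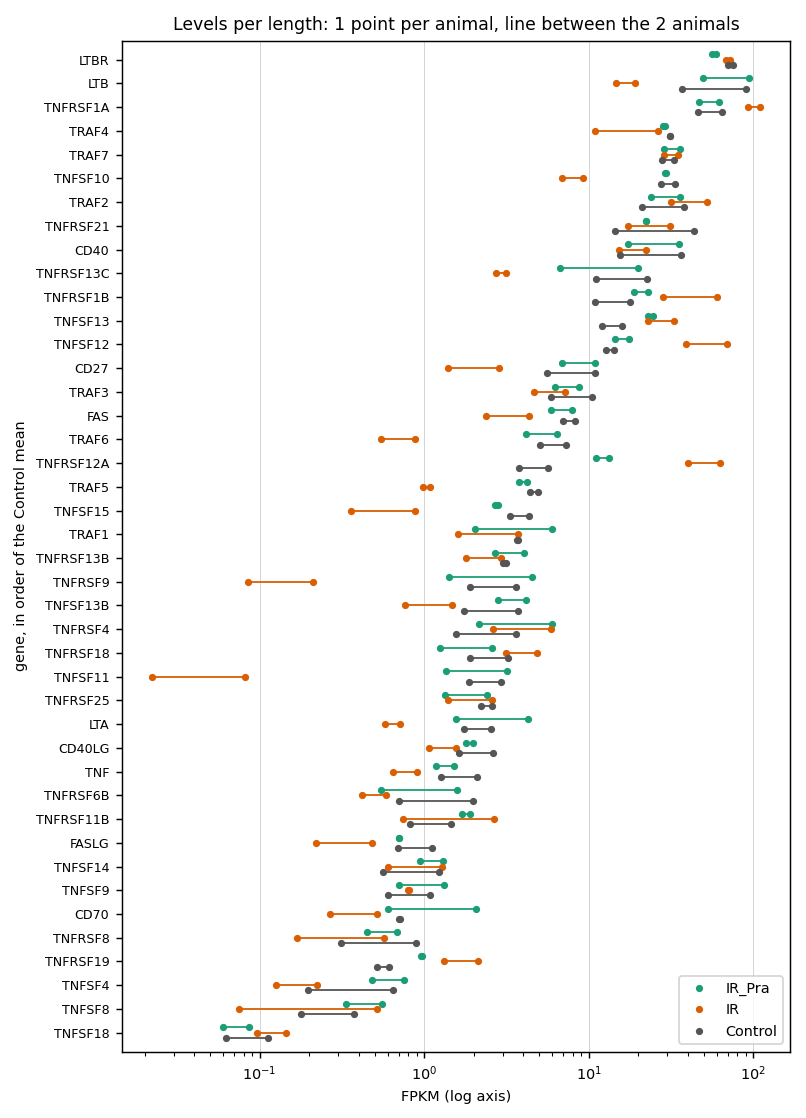
Level of each of the 42 members in FPKM (log axis) in IR_Pra, IR and Control animals, with 1 point per animal and a line between the 2 animals of a group; genes are ordered by the Control mean. LTBR, LTB and TNFRSF1A head the Control order, and TNFSF11 in IR animals is the lowest value drawn.

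The first comparison asked which members differed on day 14 between irradiated and unirradiated intestine. With edgeR's quasi-likelihood test and Benjamini-Hochberg adjustment over 18197 genes, 8 of 42 members (19%) passed an adjusted p of 0.05, of which TNFRSF12A and TNFSF12 rose and TNFSF10, TNFSF11, TNFRSF9, TNFSF15, TRAF5 and TRAF6 fell. Over all genes tested 6.06% passed, 3.39% as higher and 2.68% as lower. These shares are the background for each later count of genes that rose or fell in IR over Control. At an unadjusted p under 0.05 there were 17 members (40.5%) beside 30.2% of all genes. The median log2 fold change was -0.46 over the members and 0.03 over all genes. The IR and Control animals did not overlap for 28 members (66.7%), 8 higher and 20 lower in IR, beside 59.8% of all genes, 29.8% higher and 30% lower. In bulk tissue, fewer cells of a type and less RNA per cell cannot be told apart. The p-values weigh group differences against a spread estimated from only 2 animals a group, pooled over the 3 groups and across genes. With the 4 libraries of this comparison alone the count of members was 0, but 0 of 18197 genes passed there too. The calls also moved with the library that was left out. None of the 8 members passed when an IR_Pra or a Control library was left out, nor did any other gene tested. Without IR 1 and without IR 2 members did pass, at a share near that of all genes. The 8 log2 fold changes kept their sign whichever library was left out. For TNFSF11 they ran from -6.66 (without IR 1) to -4.62 (without IR 2). Each of these fits rests on 1 animal in a group. With each library's length trend removed the count of members was 6 (14.3%), beside 4.09% of all genes. The log2 fold changes of TNFSF12 (1.80), TNFSF15 (-2.81) and TRAF5 (-1.77) then missed the threshold, and TNFRSF19 passed. All 8 members lost their call under some of the alternative settings given in the closing section. TNFRSF9 lost it under 11 of 19, TNFSF15 under 10 of 18, TNFSF11 and TNFSF12 under 8 of 19 and TRAF5 under 7 of 19. TNFRSF12A, TNFSF10 and TRAF6 lost it under 6 of 19.

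**Figure D2:**
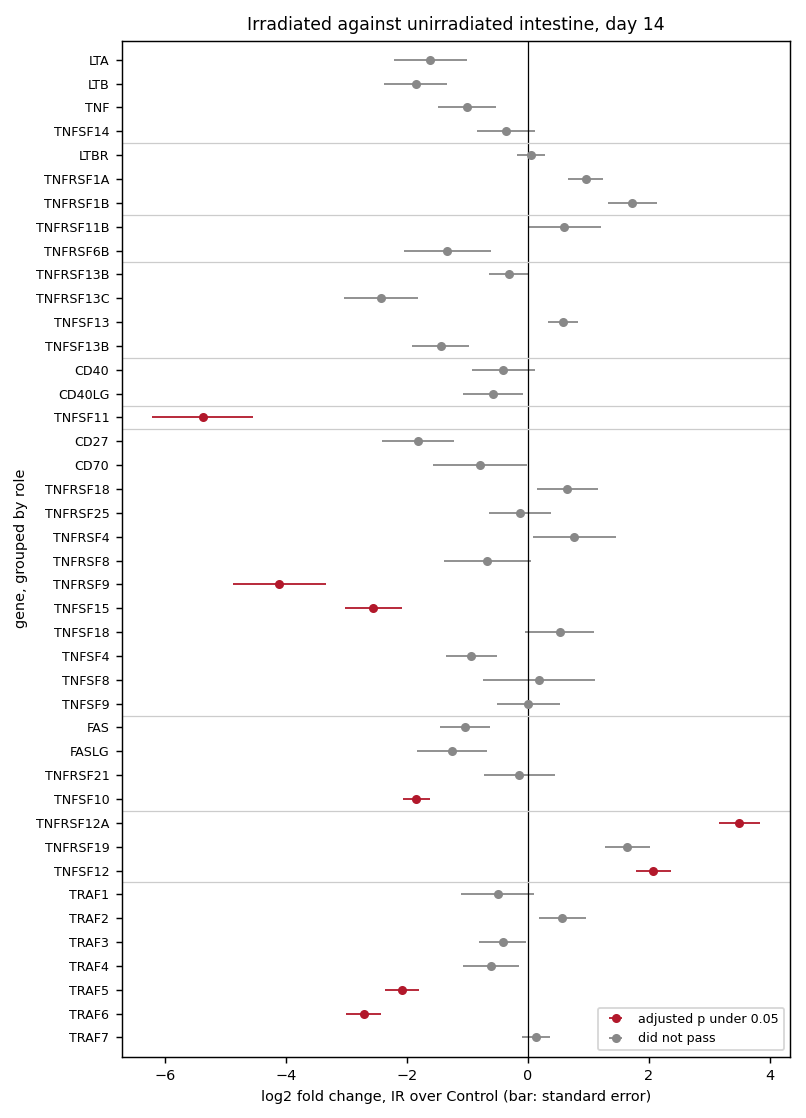
Log2 fold change of each member in IR over Control (x axis) with its standard error (bar), grouped by role; red points passed an adjusted p of 0.05 in edgeR's quasi-likelihood test. The TWEAK pair TNFRSF12A and TNFSF12 lies furthest to the right, and TNFSF11 and TNFRSF9 furthest to the left.

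The pair that rose was TWEAK, encoded by TNFSF12, and its receptor Fn14, encoded by TNFRSF12A, a small receptor known to be induced by tissue injury. TNFRSF12A (Entrez 100217390, chr3:39166288-39168294 on Sscrofa11.1) had 10.6 and 12.9 CPM in IR_Pra animals, 46.8 and 61.9 CPM in IR animals and 5.80 and 3.81 CPM in Control animals. The 3 groups did not overlap, with IR highest and Control lowest. IR was 11.3-fold above Control (log2 fold change 3.50 ± 0.34 SE, edgeR quasi-likelihood adjusted p = 0.0357). TNFSF12 (Entrez 100127163, chr12:52843026-52853328) had 18.5 and 23.0 CPM in IR_Pra animals, 61.1 and 91.7 CPM in IR animals and 17.3 and 18.9 CPM in Control animals. Both IR animals lay above the other 4, while IR_Pra and Control overlapped. IR was 4.22-fold above Control (log2 fold change 2.08 ± 0.29 SE, edgeR quasi-likelihood adjusted p = 0.0370). The next gene on the chromosome, TNFSF13, begins 317 bases after TNFSF12 and in humans shares read-through transcripts with it. TNFSF13, which encodes the plasma cell survival factor APRIL, had 37.1 and 45.1 CPM in IR animals and 23.8 and 31.1 CPM in Control animals (log2 fold change 0.58, edgeR quasi-likelihood adjusted p = 0.179). TNFRSF19, which encodes TROY, a receptor known in intestinal stem cells, had 6.95 and 10.6 CPM in IR animals and 3.22 and 2.38 CPM in Control animals, and just missed the threshold (log2 fold change 1.64, adjusted p = 0.0559 by the same test).

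Markers of macrophages and of stroma are given beside the TWEAK pair. The macrophage list, of which 7 of 8 genes rose in IR over Control, summed to 1251 and 1870 CPM in IR_Pra animals, 3522 and 3823 CPM in IR animals and 724 and 741 CPM in Control animals. The 6 fibroblast markers, of which 0 passed, summed to 6849 and 4641 CPM in IR_Pra animals, 7920 and 24592 CPM in IR animals and 1825 and 3135 CPM in Control animals. The 5 smooth muscle markers, of which ACTA2 rose, summed to 14190 and 9845 CPM in IR_Pra animals, 23016 and 52005 CPM in IR animals and 4547 and 9091 CPM in Control animals. No gene of these lists was at 0. Their part in the rise of TNFRSF12A and TNFSF12 was not tested.

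RANK ligand showed the widest difference of the family. TNFSF11 (Entrez 100037976, chr11:24468011-24505421) had 152 and 375 counts in IR_Pra animals, 12 and 4 counts in IR animals and 393 and 270 counts in Control animals. In CPM this was 2.93 and 7.03 in IR_Pra animals, 0.223 and 0.0528 in IR animals and 6.80 and 4.29 in Control animals. Both IR animals lay far below the other 4, and IR_Pra and Control overlapped. The gene was 41.7-fold lower in IR than in Control (log2 fold change -5.38 ± 0.83 SE, edgeR quasi-likelihood adjusted p = 0.0370), from the 12 and 4 counts of the IR libraries. TNFRSF11B encodes osteoprotegerin, the soluble decoy that binds RANK ligand. It had 2.04 and 6.14 CPM in IR animals and 3.46 and 1.94 CPM in Control animals, which overlapped, and its log2 fold change of 0.60 became -0.40 without IR 2. The M cell marker GP2, in a list of 4 follicle-associated epithelium genes, had 21.8 and 47.5 CPM in IR_Pra animals, 0.297 and 0 CPM in IR animals and 180 and 83.2 CPM in Control animals and fell in IR. Of that list ANXA5 rose, and its summed level overlapped, at 257 and 370 CPM in IR animals and 452 and 239 CPM in Control animals. The part of M cells in the TNFSF11 result was not tested.

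Among the 12 members that costimulate T cells, 2 fell and 0 rose, beside 2.68% and 3.39% of all genes. TNFRSF9 (Entrez 100519368, chr6:68590562-68609784), which encodes the receptor 4-1BB of activated T and NK cells, had 3.30 and 10.7 CPM in IR_Pra animals, 0.279 and 0.489 CPM in IR animals and 8.97 and 4.52 CPM in Control animals. The IR animals were the 2 lowest, and the IR_Pra animals lay on either side of the Control animals. The gene was 17.3-fold lower in IR than in Control (log2 fold change -4.11 ± 0.76 SE, edgeR quasi-likelihood adjusted p = 0.0444). The call was lost under 11 of 19 alternative settings, with log2 fold changes between -4.58 (without IR 2) and -1.67 (on the log2(FPKM + 1) scale) over all 19. Its ligand gene TNFSF9 had 2.19 and 1.82 CPM in IR animals and 2.58 and 1.41 CPM in Control animals, which overlapped. TNFSF15 (Entrez 100624969, chr1:255328731-255349508) encodes TL1A, an inflammatory ligand of endothelial and myeloid cells. It had 3.46 and 3.71 CPM in IR_Pra animals, 0.576 and 1.18 CPM in IR animals and 4.57 and 5.84 CPM in Control animals. The 3 groups did not overlap, with IR lowest, and TNFSF15 was 5.89-fold lower in IR than in Control (log2 fold change -2.56 ± 0.47 SE, edgeR quasi-likelihood adjusted p = 0.0432). Its receptor DR3, encoded by TNFRSF25, had 5.14 and 2.32 CPM in IR animals and 4.41 and 3.75 CPM in Control animals. Those groups overlapped, and the sign of its log2 fold change (-0.13) turned without IR 2 or without Control 1.

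The other 10 costimulatory members did not pass. CD27, a receptor of memory B cells and of T cells, had 2.60 and 1.08 CPM in IR animals and 8.59 and 4.30 CPM in Control animals, with no overlap (log2 fold change -1.81, edgeR quasi-likelihood adjusted p = 0.111). CD70, its ligand, had 0.186 and 0.304 CPM in IR animals and 0.433 and 0.429 CPM in Control animals. TNFSF4, which encodes OX40 ligand, had 1.41 and 1.20 CPM in IR animals and 2.03 and 2.97 CPM in Control animals. The OX40 receptor gene TNFRSF4 had 3.47 and 6.59 CPM in IR animals and 4.15 and 1.76 CPM in Control animals, so that ligand and receptor had log2 fold changes of opposite sign (-0.94 and 0.77), neither past the threshold. TNFRSF18, which encodes GITR of regulatory T cells, had 5.81 and 7.33 CPM in IR animals and 5.33 and 3.05 CPM in Control animals. Its ligand gene TNFSF18 and the CD30 ligand gene TNFSF8 stayed under 1 CPM throughout. TNFRSF8, which encodes CD30, had a log2 fold change of -0.67 with overlapping groups.

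The 8 T cell markers, of which CD3D and CD247 fell, summed to 172 and 261 CPM in IR_Pra animals, 154 and 68.5 CPM in IR animals and 322 and 211 CPM in Control animals. Of the 6 NK and cytotoxic markers KLRK1 fell. Their sum was 61.8 and 82.6 CPM in IR_Pra animals, 101 and 65.9 CPM in IR animals and 125 and 221 CPM in Control animals. No gene of either list was at 0. The part of T and NK cells in the TNFRSF9 result was not tested.

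Of the 4 members of the death receptor group, TNFSF10 fell. It encodes TRAIL, a ligand that triggers apoptosis. TNFSF10 (Entrez 406191, chr13:111021952-111103060) had 107 and 109 CPM in IR_Pra animals, 30.4 and 34.7 CPM in IR animals and 107 and 127 CPM in Control animals. The IR animals stood apart from the other 4, whose values were close together. TNFSF10 was 3.60-fold lower in IR than in Control (log2 fold change -1.85 ± 0.23 SE, edgeR quasi-likelihood adjusted p = 0.0364). The 6 general epithelial markers, of which 0 passed, summed to 6591 and 5237 CPM in IR_Pra animals, 5139 and 1306 CPM in IR animals and 4951 and 6118 CPM in Control animals, with no gene at 0. Their part in the TNFSF10 result was not tested.

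FAS, a death receptor gene that p53 is known to induce, had 13.5 and 6.28 CPM in IR animals and 22.1 and 18.5 CPM in Control animals. Both IR animals lay lower, without passing (log2 fold change -1.04, edgeR quasi-likelihood adjusted p = 0.160). The 6 p53 target genes listed as a check, of which CDKN1A and PHLDA3 rose, summed to 524 and 549 CPM in IR animals and 223 and 206 CPM in Control animals. FASLG, which encodes the FAS ligand of cytotoxic cells, stayed under 1 CPM in every library. TNFRSF21, which encodes death receptor 6, had 137 and 65.0 CPM in IR animals and 168 and 54.8 CPM in Control animals. The IR animals lay within the range of the Control animals.

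TRAF6 and TRAF5 fell, while the other 5 TRAF genes did not pass. TRAF6 is a ubiquitin ligase that carries signals from RANK, CD40 and the Toll-like and interleukin-1 receptors to TAK1 and its TAB partners. TRAF6 (Entrez 396629, chr2:24602749-24628263) had 23.0 and 20.3 CPM in IR_Pra animals, 4.25 and 3.16 CPM in IR animals and 26.9 and 21.8 CPM in Control animals. The IR animals were the 2 lowest, IR_Pra and Control overlapped, and TRAF6 was 6.58-fold lower in IR than in Control (log2 fold change -2.72 ± 0.29 SE, edgeR quasi-likelihood adjusted p = 0.0359). TRAF5 binds CD27, CD40 and the lymphotoxin beta receptor. TRAF5 (Entrez 396616, chr9:131772810-131822555) had 21.5 and 24.7 CPM in IR_Pra animals, 7.58 and 5.53 CPM in IR animals and 25.9 and 29.6 CPM in Control animals. The 3 groups did not overlap, and TRAF5 was 4.23-fold lower in IR than in Control (log2 fold change -2.08 ± 0.28 SE, edgeR quasi-likelihood adjusted p = 0.0370). Both transcripts are longer than the median of all genes, at 4094 nt for TRAF6 and 6070 nt for TRAF5.

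TRAF2, the adaptor of the TNF receptors and their ubiquitin ligases, had 98.7 and 139 CPM in IR animals and 104 and 56.8 CPM in Control animals. TRAF3, which holds the kinase NIK in check, had 39.5 and 54.0 CPM in IR animals and 81.9 and 43.2 CPM in Control animals. Both pairs overlapped. TRAF4 had 63.9 and 22.6 CPM in IR animals and 66.7 and 65.6 CPM in Control animals, so that IR 2 alone was well below the rest, and TRAF4 passed without IR 1 (log2 fold change -1.55). TRAF1, itself an NF-kB target, had 7.45 and 16.7 CPM in IR animals and 16.9 and 17.2 CPM in Control animals. TRAF7 was the steadiest of the 7, at 90.1 and 93.1 CPM in IR animals and 91.0 and 75.8 CPM in Control animals (log2 fold change 0.14 ± 0.24 SE).

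**Figure D3:**
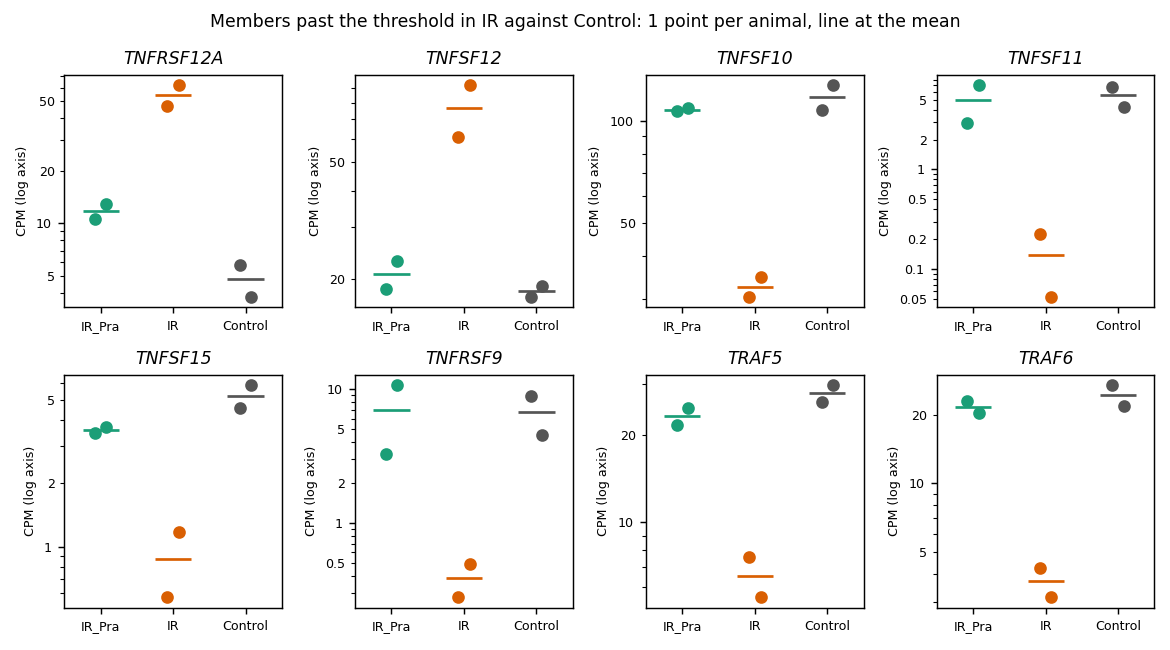
Level in CPM (log axis) of the 8 members that passed in IR over Control, with 1 point per animal and a line at the group mean for IR_Pra, IR and Control. In all 8 panels the IR animals lie apart from the Control animals. For TNFRSF12A (IR_Pra at 10.6 and 12.9 CPM), TNFSF15 and TRAF5 the IR_Pra animals lie between the other groups.

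None of the 4 TNF and lymphotoxin ligands passed, and all 4 had negative log2 fold changes. TNF had 1.82 and 1.10 CPM in IR animals and 3.67 and 2.17 CPM in Control animals (log2 fold change -1.01, edgeR quasi-likelihood adjusted p = 0.221). LTA, the secreted lymphotoxin subunit, had 1.37 and 0.937 CPM in IR animals and 4.22 and 2.84 CPM in Control animals. LTB had 46.4 and 89.8 CPM in IR_Pra animals, 16.7 and 18.3 CPM in IR animals and 90.3 and 36.5 CPM in Control animals (log2 fold change -1.86, adjusted p = 0.0798 by the same test). These 3 genes lie side by side at chr7:23696387-23707036, and each was lower in both IR animals than in both Control animals. TNFSF14, which encodes the lymphotoxin receptor ligand LIGHT, had 1.26 and 2.13 CPM in IR animals and 2.75 and 1.60 CPM in Control animals. Its log2 fold change of -0.36 turned to 0.031 on the log2(FPKM + 1) scale.

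The 3 signalling receptors TNFRSF1A, TNFRSF1B and LTBR had positive log2 fold changes, again without passing. TNFRSF1B, the TNF receptor of leukocytes and endothelium, had 60.3 and 76.9 CPM in IR_Pra animals, 119 and 208 CPM in IR animals and 62.2 and 36.7 CPM in Control animals (log2 fold change 1.73, edgeR quasi-likelihood adjusted p = 0.0593). TNFRSF1A had 93.6 and 127 CPM in IR_Pra animals, 228 and 227 CPM in IR animals and 138 and 97.0 CPM in Control animals (log2 fold change 0.95, adjusted p = 0.0944 by the same test). Both IR animals lay above both Control animals for each. LTBR had 179 and 143 CPM in IR animals and 151 and 160.3 CPM in Control animals, and its log2 fold change of 0.048 turned to -0.057 when scaled by library size alone. TNFRSF6B, which encodes a soluble decoy for FAS ligand, LIGHT and TL1A, had 0.984 and 1.16 CPM in IR animals and 4.03 and 1.40 CPM in Control animals (log2 fold change -1.33). It overlaps RTEL1 and ARFRP1, and the strand used in counting was not given, so its reads could be theirs. The same holds for LTB with LST1, TNFRSF1A with PLEKHG6, TNFRSF11B with COLEC10 and TNFRSF25 with PLEKHG5, and CD40, CD70 and TNFSF4 overlap loci without a gene name.

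In the B cell branches 0 of 6 members passed. TNFRSF13C, the BAFF receptor that keeps mature B cells alive, had 17.7 and 54.2 CPM in IR_Pra animals, 8.88 and 8.71 CPM in IR animals and 64.4 and 30.9 CPM in Control animals. The IR animals were the 2 lowest (log2 fold change -2.44, edgeR quasi-likelihood adjusted p = 0.0671). TNFSF13B, which encodes BAFF itself, had 2.80 and 3.63 CPM in IR animals and 11.9 and 5.56 CPM in Control animals (log2 fold change -1.44, adjusted p = 0.110 by the same test). TNFRSF13B, the TACI receptor for BAFF and APRIL, had 6.07 and 8.45 CPM in IR animals and 8.90 and 9.11 CPM in Control animals. CD40, the B cell and dendritic cell receptor for T cell help, had 23.1 and 28.9 CPM in IR animals and 48.7 and 20.3 CPM in Control animals. Its ligand CD40LG had 1.49 and 0.871 CPM in IR animals and 2.18 and 1.33 CPM in Control animals. Both overlapped, and the sign for CD40 (-0.41) turned without Control 1.

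The 8 B cell markers, of which 5 fell in IR, summed to 167 and 442 CPM in IR_Pra animals, 33.1 and 42.2 CPM in IR animals and 546 and 331 CPM in Control animals, with no gene at 0. The order of the animals in this sum was that of TNFRSF13C apart from the 2 IR animals, but the order was not compared for other genes. The part of B cells in the levels of LTB, TNFRSF13C, CD27 and TNFRSF9 was not tested.

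The second comparison asked how pravastatin after irradiation differed from irradiation alone. With edgeR's quasi-likelihood test, 0 of 42 members passed, and 1 of 18197 genes did (0.0055%). At an unadjusted p under 0.05 there were 15 members (35.7%) beside 24.5% of all genes. DESeq2 called 15 members (35.7%) beside 15.8% of all genes, and limma voom called 0. Without IR 1 edgeR called 11 members (26.2%) beside 20.9% of all genes, and without IR 2 it called 7 (16.7%) beside 12.8%. The IR_Pra and IR animals did not overlap for 25 members (59.5%), 15 higher and 10 lower in IR_Pra, beside 53.9% of all genes, 27.3% higher and 26.6% lower. The median log2 fold change was 0.37 over the members and -0.02 over all genes, which scaling by library size alone moved to 0.14. This comparison shares the IR animals with the first, so a value particular to those animals enters both with opposite sign.

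The 8 members that passed in IR over Control had adjusted p between 0.0754 and 0.0936 in IR_Pra over IR in edgeR's quasi-likelihood test. The log2 fold change of TNFSF11 was 5.23 in IR_Pra over IR and -5.38 in IR over Control, and that of TNFRSF9 was 4.17 and -4.11. For TRAF6 the pair of values was 2.54 and -2.72, for TNFSF15 2.02 and -2.56, for TRAF5 1.82 and -2.08, and for TNFSF10 1.73 and -1.85. TNFRSF12A had -2.21 in IR_Pra over IR and 3.50 in IR over Control, and TNFSF12 had -1.88 and 2.08. For all 8, both IR_Pra animals lay on the Control side of both IR animals. The 8 were chosen by the IR values that this comparison reuses, which favours such an order. Over all genes, IR_Pra and IR animals did not overlap for 53.9%, counted in either direction. That share was not counted among all genes that passed in IR over Control. Among the members that passed in neither, LTA had a log2 fold change of 2.00 in IR_Pra over IR, LTB 1.96, TNFRSF13C 2.03, CD27 1.86, TNFSF13B 1.71, TNFRSF1B -1.25 and TNFRSF1A -1.04. In the heat map by library the strongest colours stand in the IR columns.

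**Figure D4:**
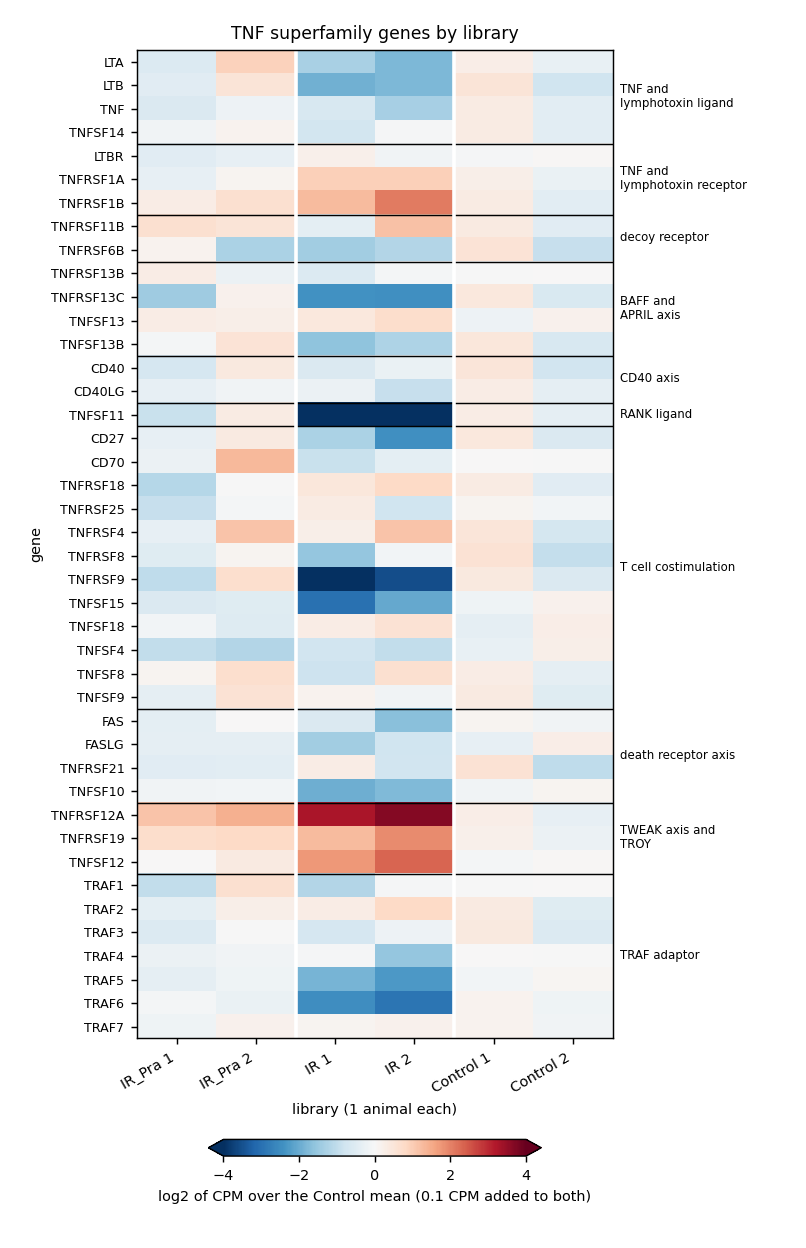
Heat map of the 42 members (rows, grouped by role) in the 6 libraries (columns), coloured by the log2 of CPM over the Control mean with 0.1 CPM added to both. The 2 IR columns hold the strongest colours, among them blue for TNFSF11, TNFRSF9, TNFSF15, TNFRSF13C, TRAF5 and TRAF6 and red for TNFRSF12A and TNFSF12.

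The third comparison set IR_Pra against Control. With edgeR's quasi-likelihood test 0 of 42 members and 0 of 18197 genes (0%) passed; 2 members (4.76%) and 3.42% of all genes had an unadjusted p under 0.05, and DESeq2 called 0 members and 72 genes. The median log2 fold change was -0.07 over the members and 0.00 over all genes. The groups did not overlap for 10 members (23.8%), 4 higher and 6 lower in IR_Pra, beside 40.8% of all genes, 20.8% higher and 20% lower. One of the 2 was TNFRSF12A, at 10.6 and 12.9 CPM in IR_Pra animals and 5.80 and 3.81 CPM in Control animals (log2 fold change 1.29 ± 0.31 SE, unadjusted p = 0.00657 in edgeR's quasi-likelihood test). The other was TNFSF4, at 1.22 and 1.05 CPM in IR_Pra animals and 2.03 and 2.97 CPM in Control animals (log2 fold change -1.14), whose sign turned to 0.20 on the log2(FPKM + 1) scale. TNFRSF19, at 4.65 and 4.89 CPM in IR_Pra animals and 3.22 and 2.38 CPM in Control animals, also did not overlap.

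Animals of 1 group also differed from each other in many members. The same counts were not made over all genes, so they do not single out the family. IR_Pra 2 was above IR_Pra 1 for 35 of 42 members, by over 1.5 times for 17, among them TNFRSF9, TNFRSF13C, TNFSF11 and TRAF1. IR 2 was above IR 1 for 26 members, and by over 1.5 times for 13. Control 1 was above Control 2 for 31 members, and by over 1.5 times for 22, among them LTB, CD40 and TNFRSF21. The B cell marker sum was likewise higher in IR_Pra 2 than in IR_Pra 1 and in Control 1 than in Control 2.

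Neighbouring members did not share a direction in every cluster. Of the 40 members placed on a chromosome, 19 lay within 200000 bases of another, in 8 clusters. In the cluster of CD27, LTBR and TNFRSF1A on chromosome 5 the log2 fold changes in IR over Control were -1.81, 0.05 and 0.95. TNFSF15 and TNFSF8 lie 86697 bases apart on chromosome 1 and had -2.56 and 0.19. TNFRSF1B and TNFRSF8 on chromosome 6, 20537 bases apart, had 1.73 and -0.67.

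Genes that act downstream of the family were counted over whole lists. In any of them 0 passed in IR_Pra over IR or in IR_Pra over Control, beside 1 and 0 of 18197 genes. In IR over Control 6.06% of all genes passed, 3.39% as higher and 2.68% as lower. Of 12 genes of cell death adaptors 1 passed: CASP10, an initiator caspase of death receptors, fell (log2 fold change -2.25). Of 19 genes of the NF-kB and IKK list TAB2, a partner of TAK1 below TRAF6, fell (log2 fold change -1.49), at 27.8 and 22.6 CPM in IR animals and 70.6 and 70.7 CPM in Control animals. Of the 17 ubiquitin editors and other regulators and of the 5 shedding proteases, 0 passed. Of 9 MAP kinase genes JUN, a subunit of the AP-1 transcription factor, rose (log2 fold change 1.40). Of 13 NF-kB targets 3 rose, the endothelial adhesion gene SELE (3.54) and the chemokine genes CXCL2 (3.21) and CCL2 (2.35), while ICAM1 and VCAM1 had 0.34 and -0.04 without passing. SELE stayed under 2 CPM in every library.

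The 7 genes measured of a list of lymphoid organ genes linked to lymphotoxin and BAFF signals were also counted. In IR over Control 1 rose and 2 fell, beside 3.39% and 2.68% of all genes. CXCL13, the chemokine that draws B cells into follicles, had 49.4 and 162 CPM in IR_Pra animals, 0.891 and 2.30 CPM in IR animals and 84.9 and 24.0 CPM in Control animals. Its receptor gene CXCR5 had 6.02 and 22.4 CPM in IR_Pra animals, 0.149 and 0.317 CPM in IR animals and 32.2 and 13.6 CPM in Control animals. Both fell, by log2 fold changes of -5.08 and -6.58 (edgeR quasi-likelihood adjusted p = 0.0456 and 0.0370). CCL21, a chemokine of lymphatic vessels and T cell zones, rose (log2 fold change 1.73). CCL19, which acts on the same receptor as CCL21, and MADCAM1, a vascular adhesion gene, had 0.91 and 0.06 without passing. Whether lymphotoxin or BAFF signals drove any of these genes here was not tested. Nor was the part of B cells, of whose 8 markers 5 fell.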

How the data were processed

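The deposited table gives, per the file headers, a read count and an FPKM value for each gene and library. Per the submitters' processing notes, the authors used bcl2fastq 2.20.0, Trimmomatic, HISAT2 2.1.0 and StringTie 2.1.3b with the builds Sscrofa11.1 and GRCh38; how whole-number read counts were made, and the role of GRCh38, are not given in the sources used here. Coordinates are those of RefSeq on Sscrofa11.1, matched by Entrez ID. The deposited FPKM equalled counts over 1 length per gene, within 5%, for 70.9% of 15681 genes with at least 50 counts.

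Rows without a symbol (24, with 0.00906% to 0.0385% of a library) were dropped. The test was run in edgeR 4.0.16 under R 4.3.3: filterByExpr (18197 genes), TMM factors, and 1 quasi-likelihood fit of all 6 libraries by group that left 3 residual degrees of freedom, by the adjusted method of version 4 of edgeR, two-sided, with Benjamini-Hochberg adjustment over all genes and a threshold of 0.05. A separate script ran the same kind of test on simulated counts. Those varied less between libraries than these data, so the run does not show how the test performs here. CPM values are counts per 1e6 of the TMM-scaled library size. Non-overlap means that both animals of one group lie above both of the other. Libraries come from separate animals, so replicate numbers pair nothing. Alternatives used limma 3.58.1 and DESeq2 1.42.0.

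Members, lists and tests were chosen with earlier results of these data known. Members were named with full values if they passed a threshold, had one of the 5 highest or 5 lowest log2 fold changes with a mean of at least 1 CPM, or stood in a fixed set of well-known members; in the other lists, every gene past the threshold or up to 4 with the smallest p could be named. BIRC2, RNF31, GLYCAM1, CR2 and the enterocyte gene ALPI were not analysed here.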

Additional observations from a re-analysis of the deposited data

How the results depend on the processing

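Of 19 alternative settings, 18 were planned; the earlier quasi-likelihood method of edgeR was added after seeing the data and gave 8 members in IR over Control. The main count of 8 became 15 with DESeq2 (35.7%, beside 22.7% of all genes) and 4 with limma on log2(FPKM + 1) (9.52%, beside 2.21%). It was 0 with the 4 libraries of the comparison alone, where 0 of 18197 genes passed. No member or other gene passed when an IR_Pra or a Control library was left out. The filter of 5 CPM in 2 libraries kept 27 members, without TNFSF15, of which 7 (25.9%) passed, beside 9.84% of all genes. Apart from the replicate block, the remaining settings gave 6 to 8 of 42 members (14.3% to 19%). Beside these, 2.61% to 6.79% of all genes passed. For IR_Pra over IR the main count of 0 became 15 with DESeq2 and ran from 0 to 11 with 1 library left out. For IR_Pra over Control it was 0 in all 19. With the replicate block 0 members and 0 genes passed in each comparison; same-numbered libraries deviated together with r of 0.0812 (IR over Control), -0.0909 (IR_Pra over IR) and -0.110 (IR_Pra over Control), and the numbers mark separate animals. Over all genes, the 1103 calls in IR over Control became 4131 with DESeq2, 403 with log2(FPKM + 1), 543 with log2(FPKM + 0.1), 475 with library size alone (182 higher and 293 lower, against 616 and 487) and 0 with the 4 libraries alone, and ran from 0 to 5366 with 1 library left out. The 1 call in IR_Pra over IR became 2872 with DESeq2, 0 with limma voom, 10 with log2(FPKM + 0.1), 2 with library size alone, 2 with no filter and 0 with the 4 libraries alone, and ran from 0 to 3795. In IR_Pra over Control DESeq2 called 72. The cause of these moves was not tested.

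Of 710 log2 fold changes of 38 named members in IR over Control, 15 turned sign, 62 lost the threshold and 13 gained it. LTBR turned to -0.048 on both FPKM scales, -0.057 with library size alone and -0.15 with the length trend removed, and TNFSF14 to 0.031 and 0.064 on the scales with 1 and 0.1 added. With 1 library left out the range was -0.83 to 0.39 for CD40, -0.13 to 0.20 for LTBR, -0.40 to 1.19 for TNFRSF11B, -0.77 to 0.95 for TNFRSF21, -0.81 to 0.34 for TNFRSF25, -0.78 to 0.10 for TNFSF14 and -0.75 to 0.14 for TRAF3. Of 375 in IR_Pra over Control 12 turned sign: TNFRSF9 to -0.085 (limma voom), -0.034 (log2(FPKM + 0.1)) and -0.16 (replicate block), TNFSF4 to 0.20 and 0.58 on the scales with 1 and 0.1 added, and, with 1 library left out, TNFRSF21 (-1.03 to 0.55), TNFRSF4 (-0.35 to 1.32), TNFRSF9 (-1.02 to 0.66), TNFSF10 (-0.26 to 0.020) and TNFSF11 (-0.91 to 0.33). None of 469 in IR_Pra over IR turned sign, and 32 gained the threshold. The lone library of a group was assumed to vary like the others.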
